A study of Mus musculus with 6 samples.

Results

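The 10 genes described here make, regulate and break down polyamines: Odc1, Amd1, Srm and Sms for synthesis, Azin1, Oaz1 and Oaz2 for the control of ornithine decarboxylase, and Sat1, Smox and Paox for breakdown. They were chosen by symbol with earlier results of these data known, as were the gene lists used further on. Shares of these genes that rose or fell are therefore descriptions. Each of the 10 was found among the 25241 genes of the deposited tables. All 10 passed the minimum of counts and were among the 14369 genes tested. Transcripts were measured by RNA sequencing in wild-type neural stem cells from the mouse hippocampus, grown as primary cultures of the subgranular zone to passage 3. The 3 cadmium libraries are from cells kept for 72 h in 0.8 μM cadmium chloride, and the 3 control libraries are from untreated cells. The labels call the replicates biological without naming separate animals or platings, so the p-values reflect library-to-library spread that may be partly technical.

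Putrescine, spermidine and spermine are small positively charged amines that bind RNA, DNA and the translation machinery, and proliferating cells need them. Ornithine decarboxylase makes putrescine from ornithine, and aminopropyl groups from decarboxylated S-adenosylmethionine then extend it to spermidine and spermine. Antizymes bind ornithine decarboxylase and send it to the proteasome, antizyme inhibitors capture antizymes, and acetylation and oxidation run the chain backwards. Much of this control acts on translation and protein stability, which RNA counts do not record.

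Cadmium was followed by more transcript of synthesis enzymes and less of spermine oxidase. Srm, Sms and Odc1 rose by 1.73-fold, 1.44-fold and 1.47-fold, Oaz1 rose by 1.11-fold, and Smox fell to 0.649 of its control level. The other 5 genes, Amd1, Azin1, Oaz2, Sat1 and Paox, did not pass the threshold of an adjusted p below 0.05 (edgeR quasi-likelihood test, Benjamini-Hochberg adjustment over all genes tested). In all, 4 of 10 rose and 1 of 10 fell, while 23.1% of all genes tested rose and 22.4% fell, 45.5% together, so the share of genes called is near that of the whole table. At 1.3-fold or more, 4 of the 10 (Odc1, Srm, Sms and Smox) passed, against 20.1% of all genes tested. The median log2 fold change of the 10 genes was 0.09, against -0.01 over all genes tested.

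Library totals ran from 37710042 to 40748613 counts in cadmium and from 40634758 to 41523231 in control libraries. The 10 genes together took 0.129 to 0.132% of counts in cadmium libraries and 0.115 to 0.123% in control libraries. Exposure was checked with the heme oxygenase gene Hmox1 at 348 ± 7.42 CPM in cadmium and 93.5 ± 5.80 CPM in control libraries, and the zinc exporter gene Slc30a1 at 68.2 ± 2.07 CPM in cadmium and 32.5 ± 1.58 CPM in control libraries (SD, n = 3). Here CPM is counts scaled by library total with TMM factors. Control replicate 3 stood apart from the other controls, with a first principal component score of 36.95 against 23.39 and 22.42, and scores of -24.02, -31.97 and -26.77 for cadmium replicates 1, 2 and 3. All 8 neural stem cell markers examined were expressed, and 3 rose and 5 fell, with log2 fold changes of 0.78 for Nes, -0.27 for Sox2 and -1.20 for Hes5. Their sum was 7095 to 7283 CPM in cadmium and 6374 to 6689 CPM in control libraries. The 8 astrocyte markers summed to 3123 to 3284 CPM in cadmium and 5481 to 6532 CPM in control libraries, the highest being control replicate 3. Of these markers 7 fell and 1 rose, and none was at 0. The 8 oligodendrocyte lineage markers summed to 1070 to 1170 CPM in cadmium and 1074 to 1168 CPM in control libraries, and of 6 tested 1 rose and 4 fell. Microglial markers summed to at most 0.666 CPM in cadmium and 0.510 CPM in control libraries, with Ptprc at 0. Ependymal markers summed to 40.5 to 44.6 CPM in cadmium and 56.9 to 67.3 CPM in control libraries, and both tested fell. Fibroblast and pericyte markers summed to 0.910 to 1.38 CPM in cadmium and 2.87 to 2.89 CPM in control libraries, and 2 of 3 tested fell. Of 8 neuronal markers, 2 fell, and their sum was 606 to 691 CPM in cadmium and 683 to 722 CPM in control libraries. The part of these cell types in the results below was not tested. In bulk RNA, fewer cells of a type and less RNA per cell cannot be told apart. Nor was it tested whether each marker is particular to its cell type in these cultures.

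Ornithine decarboxylase, encoded by Odc1 (Entrez 18263), catalyses the first committed step. Odc1 had 226, 240 and 221 CPM in cadmium replicates 1, 2 and 3, against 165, 163 and 140 CPM in control replicates 1, 2 and 3. Every cadmium library lay above every control library, and control replicate 3 was the lowest. The log2 fold change was 0.55 ± 0.06 (SE, edgeR adjusted p = 7.4e-06), with a 95% interval of 0.43 to 0.68.

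Spermidine synthase, encoded by Srm (20810), adds the first aminopropyl group to putrescine. Srm had 93.5, 112 and 102 CPM in the cadmium libraries and 65.6, 61.9 and 50.1 CPM in the control libraries. The groups did not overlap, and relative to its level this gene varied more than Odc1 within both. Its log2 fold change of 0.79 ± 0.10 (edgeR adjusted p = 0.00024) was the highest of the 10 and lay at the 96.6th percentile of all genes tested.

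Spermine synthase, encoded by the X-linked gene Sms (20603), adds the second aminopropyl group. Sms had 66.4, 69.4 and 68.1 CPM in cadmium libraries, against 50.6, 49.5 and 41.3 CPM in control libraries. The cadmium libraries were close together and all above the controls, of which replicate 3 was again the lowest. The log2 fold change was 0.53 ± 0.07 (edgeR adjusted p = 2.6e-05).

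S-adenosylmethionine decarboxylase, encoded by Amd1 (11702), supplies the aminopropyl donor to both synthases. Amd1 had 76.0, 74.4 and 69.6 CPM in cadmium and 70.1, 69.9 and 62.8 CPM in control libraries. Cadmium replicate 3 lay below control replicates 1 and 2, so the groups overlapped. The log2 fold change of 0.12 ± 0.06 did not pass the test (edgeR adjusted p = 0.097), and its 95% interval reached up to 0.24, below the lower bounds of 0.43, 0.56 and 0.38 for Odc1, Srm and Sms. The difference between these genes was not itself tested. Amd1 has a near-identical copy, Amd2, and pseudogenes are annotated for Amd1, Sms, Oaz1 and Oaz2, so some reads may be shared or lost. Amd2 itself had 0.533 ± 0.0991 CPM in cadmium and 0.466 ± 0.286 CPM in control libraries (SD, n = 3).

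**Figure D1:**
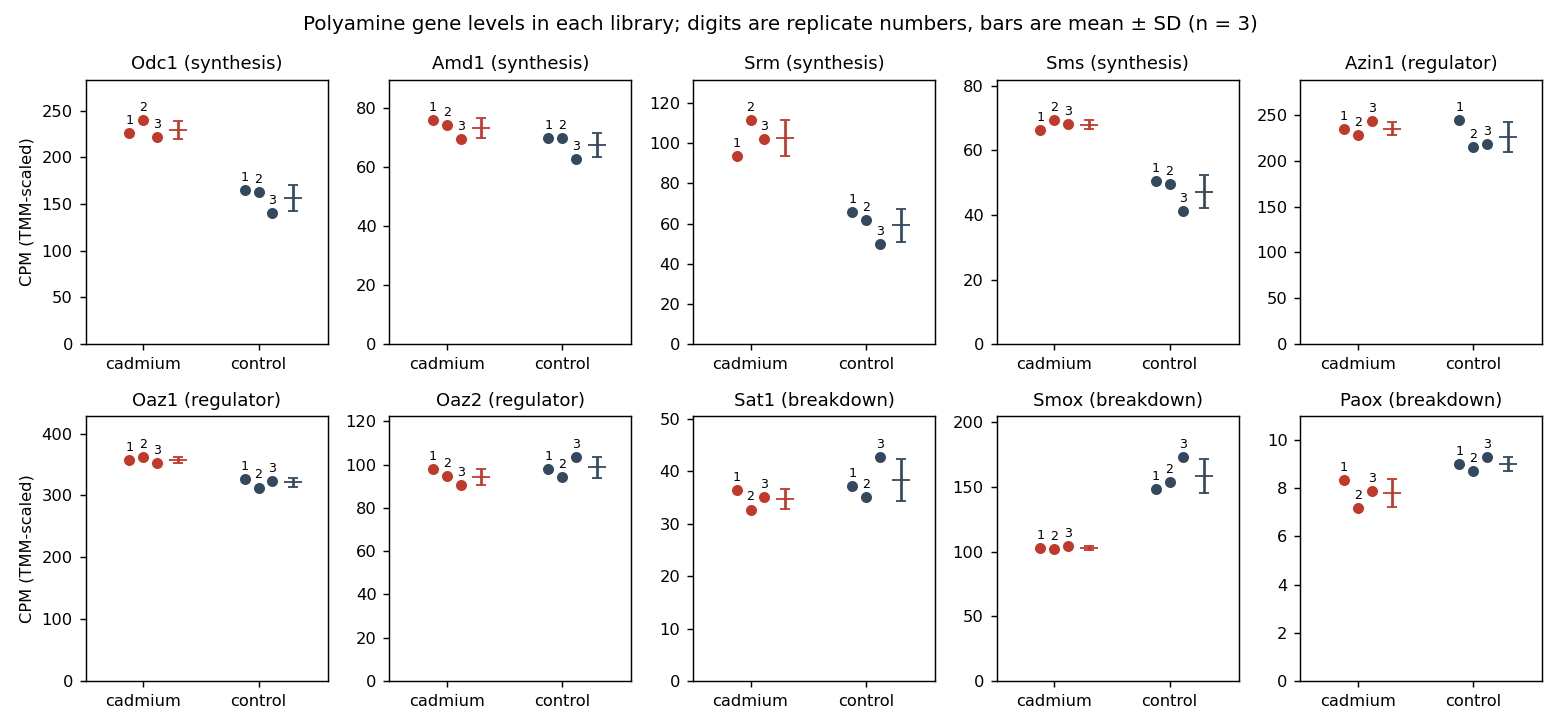
Level of each gene (y axis, CPM after TMM scaling, from 0) in the 3 cadmium and 3 control libraries; digits are replicate numbers and bars give mean ± SD. Odc1, Srm, Sms and Oaz1 lie wholly higher in cadmium libraries and Smox and Paox wholly lower, and control replicate 3 is the lowest control for all 4 synthesis genes. Groups stood apart, in either direction, in 56.3% of all genes tested.

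Regulators of ornithine decarboxylase moved little. Antizyme 1, encoded by Oaz1 (18245), binds ornithine decarboxylase and targets it for degradation, and it was the most abundant of the 10 on the FPKM scale, which divides by gene length. Oaz1 had 358, 363 and 352 CPM in cadmium libraries and 327, 313 and 323 CPM in control libraries. The groups did not overlap, and the log2 fold change was 0.16 ± 0.04 (SE, edgeR adjusted p = 0.0034).

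Antizyme 2, encoded by Oaz2 (18247), is a further antizyme with the same partner. Oaz2 had 97.8, 94.9 and 90.6 CPM in cadmium and 98.2, 94.3 and 104 CPM in control libraries. The groups overlapped, and the log2 fold change was -0.06 ± 0.05 (edgeR adjusted p = 0.31). Antizyme inhibitor 1, encoded by Azin1 (54375), resembles ornithine decarboxylase but has no decarboxylase activity and captures antizymes. Azin1 had 234, 228 and 243 CPM in cadmium and 244, 215 and 218 CPM in control libraries, with overlap and a log2 fold change of 0.06 ± 0.05 (edgeR adjusted p = 0.36). The 95% intervals for Azin1 and Oaz2 were -0.05 to 0.16 and -0.17 to 0.04.

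Antizyme mRNAs carry a stop codon that ribosomes pass by a shift into the next reading frame when polyamines are plentiful, so the amount of mRNA alone does not set the amount of antizyme. The site is shown because polyamines act on antizyme synthesis there. Both sequences are mRNA sense, from GENCODE M21 transcripts of genes on chromosomes 10 and 9. They run 5′ to 3′ with the codon before the stop and the stop itself in capitals.
Oaz1: cggtggtgcTCCTGAtgtccctcaccc
Oaz2: ctgtggtgcTCCTGAtgcccctcaccc
Of these 27 bases 25 are identical between both genes. In the shifted frame, transcript models that hold the stop read on for at most 151 codons in Oaz1 and 106 in Oaz2. The counts here measure these mRNAs and not the shift.

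Breakdown genes all had lower means after cadmium, but Smox alone of the 3 passed the test. Spermine oxidase, encoded by Smox (228608), converts spermine directly to spermidine and releases hydrogen peroxide. Smox had 102, 102 and 104 CPM in cadmium libraries, against 148, 154 and 173 CPM in control libraries. The cadmium libraries were close together and all below the controls, of which replicate 3 was the highest. The log2 fold change was -0.62 ± 0.05 (SE, edgeR adjusted p = 7.9e-07), with a 95% interval of -0.74 to -0.51, at the 7.4th percentile of all genes tested. A predicted gene that overlaps Smox in the RefSeq annotation, Gm30679, had 3 to 11 counts per library.

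Spermidine/spermine N1-acetyltransferase, encoded by Sat1 (20229), acetylates polyamines for export or oxidation and is the inducible step of the backward route. Sat1 had 36.4, 32.7 and 35.1 CPM in cadmium and 37.3, 35.1 and 42.8 CPM in control libraries. The groups overlapped, and the log2 fold change was -0.14 ± 0.07 (edgeR adjusted p = 0.13). Polyamine oxidase, encoded by Paox (212503), is a peroxisomal enzyme that oxidises the acetylated forms. Paox had 8.34, 7.16 and 7.89 CPM in cadmium and 8.998, 8.70 and 9.31 CPM in control libraries. All cadmium libraries lay below all controls, as groups stood apart in 56.3% of all genes tested, and the log2 fold change of -0.21 ± 0.10 did not pass the test (edgeR adjusted p = 0.10). The span of Paox overlaps that of Echs1, a fatty acid oxidation gene at 109 ± 2.43 CPM in cadmium and 139 ± 4.10 CPM in control libraries (SD, n = 3). Reads from any stretch that both transcripts share cannot be told apart where strand is ignored. Whether the transcripts share such a stretch was not examined.

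**Figure D2:**
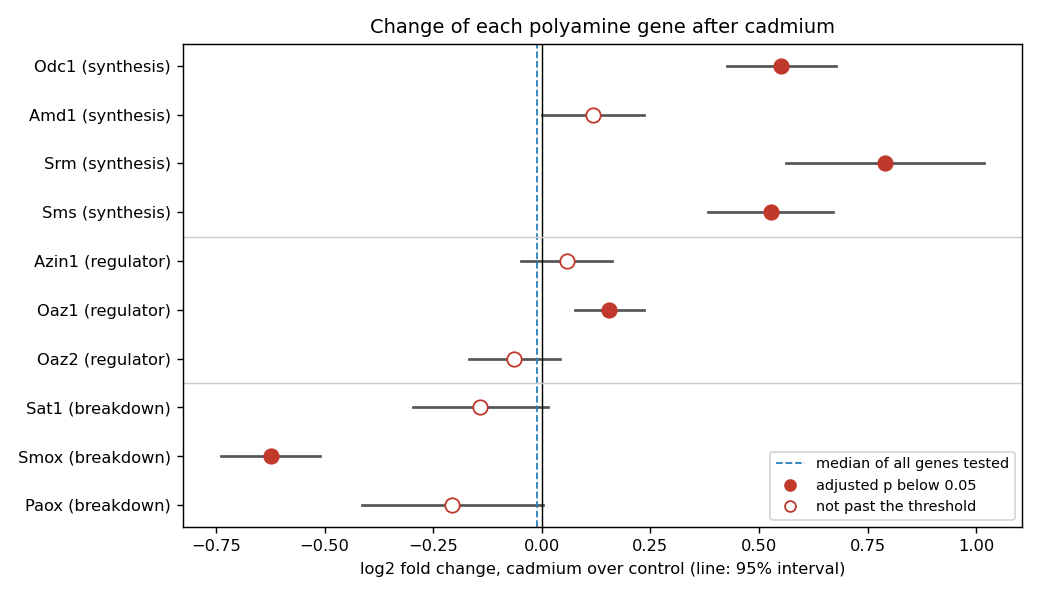
Log2 fold change of each gene, cadmium over control (x axis), with its 95% interval as a line; filled points passed an adjusted p below 0.05 and the dashed line is the median of all genes tested, -0.01. Srm, Odc1 and Sms lie at 0.79, 0.55 and 0.53 and Smox at -0.62, while Amd1 at 0.12 and Oaz1 at 0.16 lie between them and the genes near 0.

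Levels of different genes were compared on the FPKM scale, which uses 1 length for each gene. These lengths ran from 1075 bases for Oaz1 and 1328 for Srm to 9176 for Azin1 and 9325 for Paox. The order of genes and the size of the ratios and sums below depend on them. In control libraries Smox had 158 CPM and Odc1 156 CPM, but 23.4 and 54.6 FPKM. In cadmium libraries Oaz1 was the highest at 332 ± 4.91 FPKM, followed by Odc1 at 79.5 ± 3.36, Srm at 76.9 ± 6.64 and Oaz2 at 51.1 ± 2.06 FPKM (SD, n = 3). Azin1, Amd1, Sat1, Sms and Smox followed at means of 25.5, 22.8, 21.02, 17.8 and 15.1 FPKM, and Paox was the lowest at 0.834 ± 0.0648 FPKM. Neighbours in that order overlapped for Odc1 with Srm and for Amd1 with Sat1. In control libraries Oaz1 was at 299 ± 7.24 FPKM, Odc1 at 54.6 ± 5.31, Oaz2 at 53.7 ± 2.13 and Srm at 44.7 ± 6.53 FPKM (SD, n = 3). There Azin1, Smox, Sat1 and Amd1 formed a run of overlapping neighbours with means of 24.7, 23.4, 23.3 and 21.1 FPKM, and Sms and Paox followed at 12.5 and 0.968 FPKM. Srm thus stood above Oaz2 in cadmium and below it in control libraries, and Smox ranked below Sms in cadmium and above it in control libraries.

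Ratios within a library, which do not depend on scaling between libraries, are given as a description. The FPKM ratio of Odc1 to Smox was 5.21, 5.58 and 5.03 in cadmium libraries and 2.64, 2.51 and 1.92 in control libraries. That of Odc1 to Oaz1 was 0.240 ± 0.00704 in cadmium and 0.182 ± 0.0172 in control libraries. The ratio of Azin1 to Oaz1 was 0.0770 ± 0.00355 in cadmium and 0.0824 ± 0.00442 in control libraries (SD, n = 3). The ratios of Odc1 to Smox and of Odc1 to Oaz1 stood apart between the groups, and that of Azin1 to Oaz1 overlapped. This follows from the changes of the single genes given above and adds no further test.

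Summed over the 4 synthesis genes, the level was 190 to 208 FPKM in cadmium and 116 to 143 FPKM in control libraries. Over the 3 breakdown genes it was 35.4 to 38.0 FPKM in cadmium and 45.1 to 52.0 FPKM in control libraries. The 3 regulators summed to 401 to 412 FPKM in cadmium and 368 to 388 FPKM in control libraries.

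Control replicate 3 lay farther from the cadmium libraries than the other controls in the synthesis and breakdown genes and in Oaz2. Its level relative to the mean of control replicates 1 and 2 was -0.23, -0.16, -0.35 and -0.28 on the log2 scale for Odc1, Amd1, Srm and Sms. For Oaz2, Sat1, Smox and Paox it was the highest control, with values of 0.11, 0.24, 0.20 and 0.07. For Azin1 and Oaz1 it was the middle control, with values of -0.08 and 0.01. Without it, the log2 fold changes were 0.48 for Odc1, 0.68 for Srm, 0.44 for Sms, 0.16 for Oaz1 and -0.56 for Smox, and all 5 still passed the test (edgeR adjusted p of 8.9e-09, 2.4e-06, 4.3e-07, 0.00075 and 1.2e-09). Control replicate 3 was also the library with the highest astrocyte marker sum, and the part of that in these differences was not tested.

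**Figure D3:**
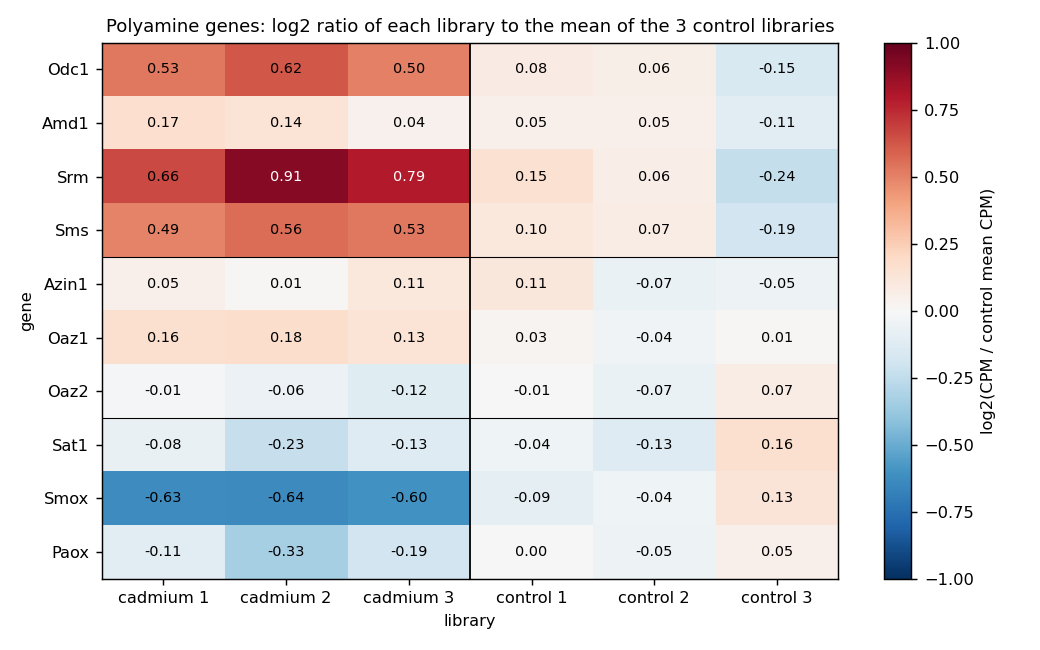
Log2 ratio of each library (columns) to the mean of the 3 control libraries for each gene (rows), with the ratio printed in each cell; red is higher and blue lower. Srm runs from 0.66 to 0.91 and Smox from -0.64 to -0.60 in cadmium libraries, while control replicate 3 runs from -0.24 to -0.11 for the 4 synthesis genes.

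Promoter windows are shown for Odc1, Sms and Smox, 3 of the genes with the largest changes. RefSeq windows on build GRCm38.p6, from 250 bases before to 50 after an annotated start, matched 8 of the 10 genes, not Srm or Azin1. Short motifs were searched on both strands: the E-box bound by MYC (CACGTG), both forms of the metal response element core (TGCACNC and TGCGCNC), an antioxidant response element core (TGACNNNGC) and an amino acid response element core (TGATGNAA). Matches are in capitals, 5′ to 3′ on the strand of the gene.
Odc1 (chr12:17544623-17544922, plus strand): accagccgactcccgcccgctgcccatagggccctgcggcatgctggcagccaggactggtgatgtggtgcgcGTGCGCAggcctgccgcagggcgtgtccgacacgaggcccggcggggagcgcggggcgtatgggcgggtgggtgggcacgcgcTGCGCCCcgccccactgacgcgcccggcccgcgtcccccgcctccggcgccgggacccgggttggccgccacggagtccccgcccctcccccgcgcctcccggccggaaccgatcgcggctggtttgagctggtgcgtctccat
Sms (chrX:157492238-157492537, minus strand): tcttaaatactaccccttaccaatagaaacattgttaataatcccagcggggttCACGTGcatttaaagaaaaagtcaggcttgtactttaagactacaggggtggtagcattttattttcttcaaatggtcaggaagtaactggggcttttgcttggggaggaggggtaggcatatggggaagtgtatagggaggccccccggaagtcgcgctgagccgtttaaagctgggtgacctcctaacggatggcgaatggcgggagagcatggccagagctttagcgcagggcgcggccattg
Smox (chr2:131491612-131491911, plus strand): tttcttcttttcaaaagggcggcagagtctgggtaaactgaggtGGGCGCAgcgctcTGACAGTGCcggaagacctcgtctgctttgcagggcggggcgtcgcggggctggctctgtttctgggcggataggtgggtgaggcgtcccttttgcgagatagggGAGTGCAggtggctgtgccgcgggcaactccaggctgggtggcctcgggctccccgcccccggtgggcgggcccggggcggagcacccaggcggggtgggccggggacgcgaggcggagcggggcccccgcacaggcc
In the Odc1 window both capital runs are the G form of the metal response element core, starting at -177 and -94 from the start site. The capitals in Sms are an E-box at -196 of one of its 2 annotated windows, the only E-box in the windows of these 8 genes. The other Sms window, not printed, held none of the motifs searched. Smox has the G form at -206, the antioxidant core at -193 and the A form at -88. Among all 32851 windows of the table, 7.15% held the E-box, 12.6% the A form, 15.4% the G form, 12.4% the antioxidant core and 3.97% the amino acid core. Counted by gene, the shares of tested genes with any such window were 11.5%, 15.4%, 30.9%, 16.8% and 2.64% in the same order. Over the 8 genes with windows, 1 held the E-box, 2 the A form, 4 the G form, 2 the antioxidant core and 0 the amino acid core. A match is a description of letters in this window and not evidence of binding.

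Transcription factors known to act on genes of this pathway were measured alongside. Of 6 tested, 3 rose and 1 fell, against 23.1% and 22.4% of all genes tested. Myc, whose product is a known activator of Odc1, had 73.5, 89.3 and 81.1 CPM in cadmium and 56.6, 69.7 and 51.5 CPM in control libraries, a log2 fold change of 0.46 ± 0.12 (SE, edgeR adjusted p = 0.016). This call was lost without control replicate 1 (edgeR adjusted p = 0.077) and without control replicate 3 (0.079; range over its alternatives 1.5e-05 to 0.079). Mycn, its neural paralog, had 3.30, 2.90 and 3.70 CPM in cadmium and 6.78, 7.17 and 8.60 CPM in control libraries, and fell by 1.19 ± 0.14 on the log2 scale (edgeR adjusted p = 8.7e-06). Atf4, the effector of the integrated stress response, rose with a log2 fold change of 0.43 ± 0.04 (edgeR adjusted p = 3.0e-06).

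A list of 14 genes covers the supply and use of arginine and ornithine, the source of putrescine. Of these, 10 were tested, 3 rose and 5 fell (23.1% and 22.4% over all genes tested). As suppliers and users stand together, these counts do not measure net supply. The median log2 fold change of the list was -0.12, against -0.01 over all genes tested. The cationic amino acid transporter gene Slc7a3 had 5.66, 4.50 and 5.48 CPM in cadmium and 2.22, 1.75 and 1.94 CPM in control libraries, a log2 fold change of 1.40 ± 0.16 (edgeR adjusted p = 7.6e-06). A second transporter of this family, Slc7a1, named here after its values were seen, had 81.7, 97.8 and 88.0 CPM in cadmium and 40.8, 41.5 and 28.3 CPM in control libraries, with a log2 fold change of 1.27 ± 0.16 (adjusted p = 0.00089). For both, every cadmium library lay above every control library. The other member of the family tested, Slc7a2, also named after its values were seen, went the other way, with 33.9, 32.9 and 32.7 CPM in cadmium and 45.04, 41.7 and 44.6 CPM in control libraries, and its log2 fold change was -0.40 ± 0.06 (edgeR adjusted p = 4.5e-05). Aldh18a1, which commits glutamate to proline and ornithine, rose by 0.56 ± 0.05 on the log2 scale. Oat, ornithine aminotransferase, which diverts ornithine to glutamate and proline, was at 560 ± 13.3 CPM in cadmium and 835 ± 68.7 CPM in control libraries (SD, n = 3), a log2 fold change of -0.58 ± 0.05. The argininosuccinate synthase gene Ass1, which acts in arginine synthesis, fell to 27.8 ± 1.74 CPM in cadmium against 44.2 ± 1.84 CPM in control libraries (SD, n = 3). Both falls passed the test (edgeR adjusted p of 1.5e-06 and 1.5e-06).

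S-adenosylmethionine supply and the salvage of methylthioadenosine, the by-product of both aminopropyl transfers, are covered by 13 listed genes. Of these 11 were tested, 7 rose and 1 fell, against 23.1% and 22.4% of all genes tested. Their median log2 fold change was 0.23, against -0.01 over all genes tested. The list was chosen with earlier results of these data known, so these shares are only a description. Mtap, which cleaves methylthioadenosine, had 73.9, 80.7 and 73.3 CPM in cadmium and 49.8, 52.5 and 44.9 CPM in control libraries, and its log2 fold change was 0.63 ± 0.06 (edgeR adjusted p = 2.3e-06). Got1, an aminotransferase that can act at the last step of salvage, had 0.56 ± 0.05. Apip, a dehydratase of the same salvage route, went the other way with -0.46 ± 0.08, at 13.1 ± 0.969 CPM in cadmium and 18.1 ± 0.411 CPM in control libraries (SD, n = 3). These changes also passed the test (adjusted p of 1.1e-06 and 0.00026).

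Polyamine transport genes were mixed. Of 12 listed, 7 were tested, 2 rose and 1 fell, against 23.1% and 22.4% of all genes tested. Atp13a3, a P5B-type ATPase of polyamine uptake, had 183, 178 and 179 CPM in cadmium and 142, 129 and 108 CPM in control libraries, with a log2 fold change of 0.51 ± 0.08 (edgeR adjusted p = 0.00087). Its lysosomal relative Atp13a2, which exports polyamines from lysosomes to the cytosol, had 76.2, 81.1 and 83.6 CPM in cadmium and 91.9, 94.9 and 109 CPM in control libraries, a log2 fold change of -0.30 ± 0.06 (edgeR adjusted p = 0.0014). Within each of these paralogs the groups stood apart, in opposite directions. Slc3a2, the heavy chain of several amino acid transporters, rose by 0.29 ± 0.04 on the log2 scale.

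Hypusine is made from spermidine on a single lysine of the translation factor eIF5A. All 4 genes of that pathway passed the test as higher, where 23.1% of all genes tested did, and their median log2 fold change was 0.27, against -0.01 over all genes tested. This list too was chosen with earlier results of these data known, so its share is only a description. Eif5a had 933, 978 and 943 CPM in cadmium and 769, 763 and 741 CPM in control libraries, a log2 fold change of 0.33 ± 0.04 (edgeR adjusted p = 7.2e-06). Its paralog Eif5a2 was lower in level at 34.8 ± 0.480 CPM in cadmium and 27.2 ± 0.911 CPM in control libraries (SD, n = 3), with a similar log2 fold change of 0.36 ± 0.06. The enzymes that make hypusine, encoded by Dhps and Dohh and named to complete the list, had log2 fold changes of 0.20 ± 0.06 and 0.21 ± 0.08 (edgeR adjusted p of 0.020 and 0.032). The call of Dhps was lost without cadmium replicate 1, cadmium replicate 2 or control replicate 1 (adjusted p of 0.051, 0.073 and 0.081). That of Dohh was lost without cadmium replicate 2, cadmium replicate 3, control replicate 1 or control replicate 2 (0.15, 0.076, 0.075 and 0.095).

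Among other paralogs of the 10 genes, 3 of 6 listed were tested and 1 fell, where 22.4% of all genes tested did. Sat2, the paralog of Sat1, was at 8.66 ± 0.466 CPM in cadmium and 11.2 ± 0.497 CPM in control libraries (SD, n = 3), a log2 fold change of -0.37 ± 0.09 (edgeR adjusted p = 0.0042). Azin2, the second antizyme inhibitor, was at 21.4 ± 0.333 CPM in cadmium and 21.3 ± 0.682 CPM in control libraries (SD, n = 3).

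The deposited annotation ties 71 genes beyond the 10 to polyamines by name, of which 55 were tested, 25 rose and 7 fell, against 23.1% and 22.4% of all genes tested. Of the 71, 15 also stand in the lists above, and 8 of those were tested, with 2 higher (Atp13a3 and Dhps) and 2 lower (Atp13a2 and Sat2). Most of the 71 are proteasome genes listed under the regulation of ornithine decarboxylase, whose degradation does not need ubiquitin. Of 43 proteasome genes tested, 22 rose and 5 fell, with a median log2 fold change of 0.11, against -0.01 over all genes tested. Psme3, a nuclear proteasome activator, had 0.36 ± 0.04, while Psme1, a subunit of the interferon-inducible activator, had -0.27 ± 0.06 (edgeR adjusted p of 1.5e-05 and 0.0021). Outside the proteasome and the lists above 4 were tested, and the 1 that passed was Hnrnpd, an RNA-binding protein gene, with a log2 fold change of 0.35 ± 0.04 (edgeR adjusted p = 5.5e-06).

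**Figure D4:**
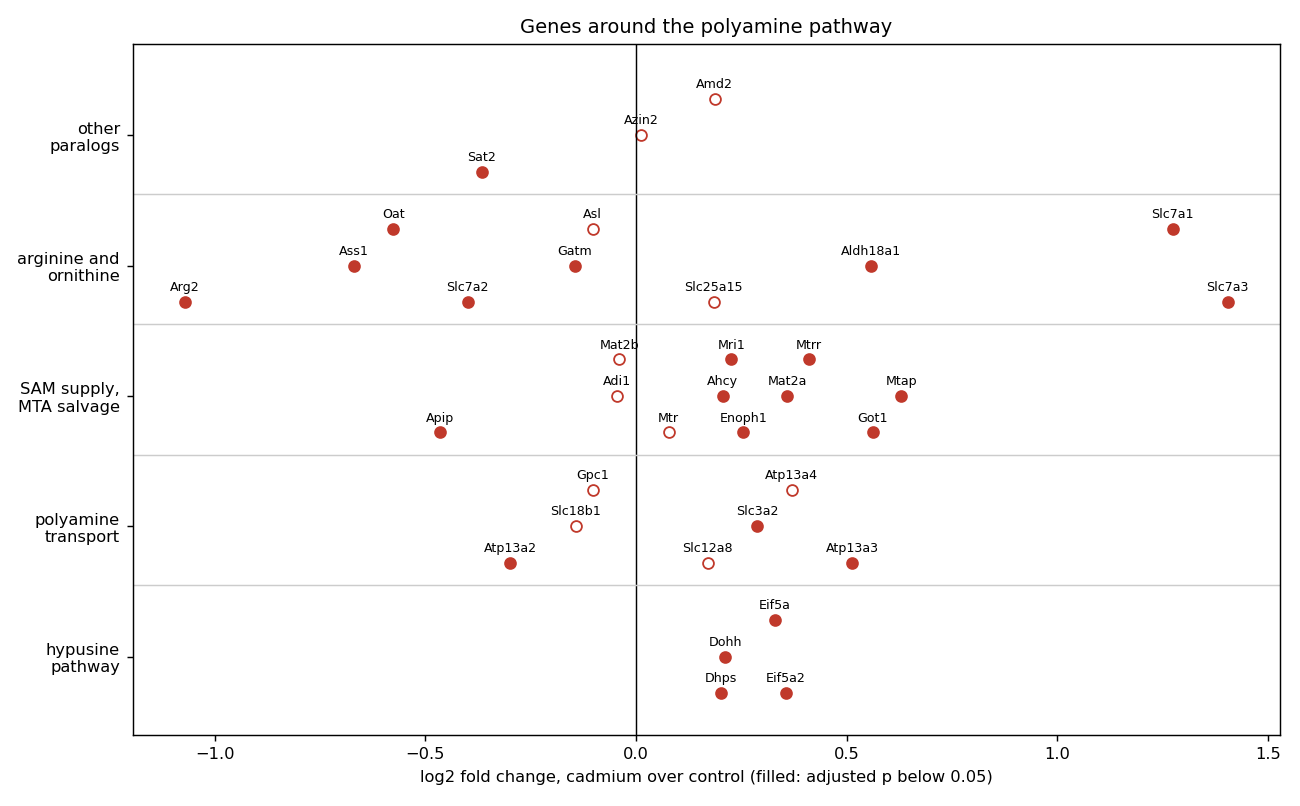
Log2 fold change, cadmium over control (x axis), of genes around the polyamine pathway in 5 lists (rows), where SAM is S-adenosylmethionine and MTA methylthioadenosine; filled points passed an adjusted p below 0.05. The 4 hypusine genes lie between 0.20 and 0.36, and the arginine and ornithine genes span from -1.07 for Arg2, a low gene at 0.567 CPM in cadmium and 1.20 CPM in control libraries, to 1.40 for Slc7a3.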

How the data were processed

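Messenger RNA was enriched from total RNA and sequenced on an Illumina platform, per the labels' protocols. The deposited count table, whole reads for every gene, is the authors' own. Tools named in the submitters' processing notes are HISAT2 2.1.0, fastp 0.20.1, DESeq2 1.22.2 and HTSeq 0.11.2, with build GRCm39 and no role for any of them. Annotation and strand setting: not given in the sources used here. FPKM values, scaled by the authors, matched the counts divided by library total and by 1 length for each gene, within a relative deviation of 1.63e-08.

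The test was the quasi-likelihood F test of edgeR 4.0.16 (R 4.3.3), robust, with TMM scaling and group as the only term, after filterByExpr (min.count 10, min.total.count 15). Two-sided p-values were adjusted by Benjamini-Hochberg over all genes tested. SE is the absolute log2 fold change over the square root of F, and 95% intervals use the t distribution. The procedure was tested on simulated counts in which far fewer genes changed than were called here, and no library stood apart. That test does not gauge the error rate in these data. DESeq2 1.42.0 and limma 3.58.1 served as alternatives. Groups and replicate numbers come from the labels. Named genes are the 10 polyamine genes and, from each list, up to 2 that rose and 2 that fell with the smallest p, and outside that rule Slc7a1, Slc7a2, Dhps, Dohh, Azin2, Amd2 and Arg2. Members and lists were chosen with earlier results of these data known. Promoters, matched by Entrez identifier, are RefSeq's (GRCm38.p6). Some listed genes were not analysed here.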

Additional observations from a re-analysis of the deposited data

How the results depend on the processing

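Over 15 alternatives for 38 named genes, 551 of 567 values kept their direction and their side of the threshold, 11 lost a call, 3 gained one and 2 reversed. The losses were 2 of Myc, 3 of Dhps, 5 of Dohh and 1 of Arg2. Dohh was also lost under log2(FPKM + 1) with no FPKM minimum (adjusted p = 0.053), and Arg2 without cadmium replicate 2 (-0.82, 0.058). The reversals were of genes not called, Azin2 without control replicate 2 (-0.014, the range without 1 library being -0.014 to 0.031) and Amd2 without control replicate 1 (-0.178, range -0.178 to 0.743). Under log2(FPKM + 1), which shrinks changes of low genes, Slc7a3 was at 0.52 against 1.40, Mycn at -0.78 against -1.19, Arg2 at -0.41 against -1.07 and Paox at -0.10 against -0.21, and at a minimum of 5 CPM Slc7a3, Arg2 and Amd2 were not tested. The gains were Amd1 with no filter on low counts (log2 fold change 0.14, edgeR adjusted p = 0.038; range over its alternatives 0.038 to 0.29), Azin1 without control replicate 1 (0.12, 0.048; 0.048 to 0.76) and Sat1 without control replicate 2 (-0.20, 0.044; 0.044 to 0.48). Leaving out 1 library at a time gave 4 to 5 of the 10 genes higher and 1 to 2 lower, and 2719 to 3182 genes higher and 2617 to 3039 lower in all. Same-numbered libraries deviated from their group means with correlations of 0.02, 0.05 and -0.01, so the numbers were not taken to pair samples. With the replicate number as a block, 4 of the 10 genes were higher and 1 lower, and 3317 and 3192 of all genes, and cadmium replicate 3 did not correlate best with its own number. The lowest count of any of the 10 genes in a library was 269, for Paox, whose log2 fold change had a 95% interval of -0.42 to 0.00.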
